A study of Mus musculus with 32 samples.

Results

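Genes that encode transforming growth factor beta (TGF-β) ligands or proteins of the matrix around cells were followed in muscle of mice that lack myotubularin. They were *Tgfb1*, *Tgfb2*, *Tgfb3*, *Ltbp2*, *Postn*, *Tnc*, *Fn1*, *Spp1* and *Thbs1*, chosen by name, and they made up 9 of the 54838 genes in the table of expected counts. RNA of skeletal muscle, given in the methods as tibialis anterior (TA), was sequenced from wild-type (WT) mice and *Mtm1* knockout (KO) mice at postnatal days 1, 14, 21 and 35 (P1, P14, P21 and P35), with n=4 replicate samples per genotype and age and 32 libraries in all. All mice were of the C57BL6/J background, the labels name no treatment, and in the KO line *Mtm1* was disrupted by deletion within exon 4, which is not limited to a cell type by a promoter. *Mtm1* encodes a lipid phosphatase of endosomes whose loss causes X-linked myotubular myopathy.

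TGF-β ligands are secreted as latent complexes, in which the propeptide holds the growth factor inactive and a latent TGF-β binding protein ties it to the matrix. Integrins, proteases and thrombospondin-1 can free the ligand, which then signals through receptor kinases and SMAD transcription factors. In skeletal muscle this pathway is known for fibrosis and for restraint of myoblast fusion and regeneration. Matricellular proteins such as periostin (*Postn*), tenascin-C (*Tnc*), osteopontin (*Spp1*) and thrombospondin-1 (*Thbs1*) sit in the matrix but act mainly as signals to cells, and they are abundant in growing and injured tissue. Fibronectin (*Fn1*) is the structural glycoprotein to which many of them bind.

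In GRCm38 (GENCODE M21) the ligand genes lie as follows: *Tgfb1* (ENSMUSG00000002603) at chr7:25687002-25705077 on the plus strand, *Tgfb2* (ENSMUSG00000039239) at chr1:186622792-186705989 on the minus strand and *Tgfb3* (ENSMUSG00000021253) at chr12:86056745-86079041 on the minus strand. *Ltbp2* (ENSMUSG00000002020) at chr12:84783212-84876532 on the minus strand lies on the same chromosome as *Tgfb3*. The matrix genes are *Postn* (ENSMUSG00000027750) at chr3:54361109-54391037 on the plus strand, *Tnc* (ENSMUSG00000028364) at chr4:63959785-64047015 on the minus strand, *Fn1* (ENSMUSG00000026193) at chr1:71585520-71653200 on the minus strand, *Spp1* (ENSMUSG00000029304) at chr5:104435118-104441050 on the plus strand and *Thbs1* (ENSMUSG00000040152) at chr2:118111876-118127133 on the plus strand. All 9 are protein-coding.

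Total counts were 49321035 to 85631408 per library, and every member had a count in every library, the lowest being 16 counts of *Ltbp2*. *Mtm1* stood at 5.26 to 6.02 CPM (normalised read counts, scaled by library size) in WT and 2.32 to 3.91 CPM in KO at P1. It was 18.9 to 24.9 CPM in WT and 2.64 to 4.51 CPM in KO at the later ages, so that no KO library reached a WT library of its age. The 8 markers of muscle fibres summed to 19357 to 231183 CPM per library, and none of the 8 was at 0 in a whole group. P1 libraries also held 1855 to 6842 CPM of 8 keratinocyte markers and 509 to 885 CPM of 8 cartilage and bone markers, against 6.86 to 35.8 CPM and 3.08 to 203 CPM later. In KO P35 replicate 2 the cartilage and bone markers summed to 203 CPM, against 7.54 to 16.95 CPM in the other KO libraries of P35 and 6.48 to 12.4 CPM in WT, and 8 of the 9 members had their highest KO P35 value there. Fold changes, counts of calls and levels of KO P35 are therefore also given without this library. In this bulk RNA, more cells of a type and more RNA per cell cannot be told apart.

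The order of the levels changed with age. Per kilobase of exon, *Spp1* was the highest member in WT P1 at 334 ± 237 CPM per kb (SD, n=4), followed by *Postn* at 190 ± 5.34 and *Fn1* at 65.7 ± 5.07 CPM per kb. The ranges of *Spp1* and *Postn* overlapped, as did those of *Tgfb2* and *Tgfb1* (6.37 ± 0.774 and 4.71 ± 0.798 CPM per kb), whereas all other neighbours in the order lay apart. In WT P35 *Fn1* led at 14.6 ± 1.59 CPM per kb, *Tgfb3* followed at 12.3 ± 1.93 and *Postn* at 9.75 ± 3.41 CPM per kb. In KO P35 the first 4 were *Postn* at 28.6 ± 15.8, *Tgfb3* at 22.8 ± 3.15, *Spp1* at 19.8 ± 17.7 and *Fn1* at 18.3 ± 5.97 CPM per kb. Without KO replicate 2 the order was *Tgfb3* at 21.9 ± 3.13, *Postn* at 20.8 ± 3.06, *Fn1* at 15.3 ± 1.10 and *Spp1* at 12.6 ± 12.7 CPM per kb (SD, n=3). With all 4 libraries of either genotype at P35, each member's range overlapped that of the next in the order, except that *Ltbp2*, the lowest member, lay apart at 0.119 ± 0.0300 CPM per kb in WT and 0.771 ± 0.638 in KO. The length used was that of all annotated exons merged, which can be longer than the transcript made in muscle.

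**Figure D1:**
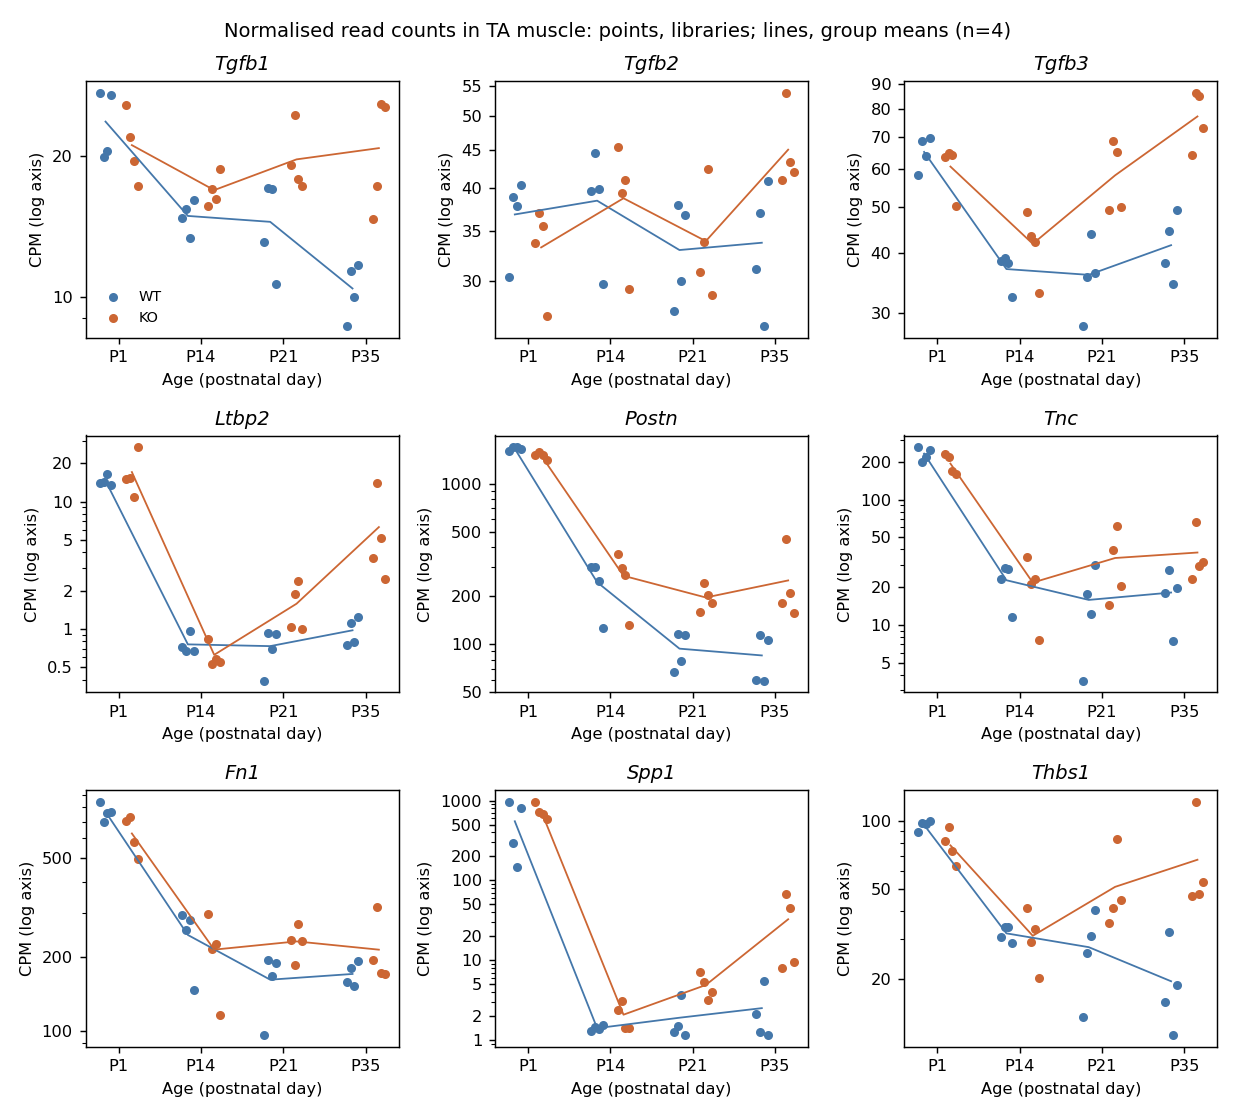
Normalised read counts of the 9 genes (y, CPM on a log axis) at 4 ages (x, postnatal day) in WT (blue) and KO (orange) TA muscle; points are libraries and lines join group means (n=4). All members but *Tgfb2* were lower at P14 than at P1, and at P35 the KO libraries of 7 members lay above every WT library.

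Promoter sequence is shown for the members called higher in KO at P35 for which the RefSeq table (GRCm38.p6) held a window. Each line gives the 150 bases before the annotated start, 5′ to 3′ on the strand of the gene. Capitals mark TATAAA, the letters of a TATA box, and CAGAC or its reverse complement GTCTG, a core sequence bound by SMAD proteins. *Postn* and *Spp1* each have a second window in the table, and the one shown is the nearer to the start of the gene in the GENCODE annotation.
*Tgfb1*, chr7:25686852-25687001, plus strand: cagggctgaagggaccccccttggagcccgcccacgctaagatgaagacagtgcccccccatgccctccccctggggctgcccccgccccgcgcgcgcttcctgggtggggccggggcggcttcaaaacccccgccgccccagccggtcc
*Ltbp2*, chr12:84876492-84876641, minus strand: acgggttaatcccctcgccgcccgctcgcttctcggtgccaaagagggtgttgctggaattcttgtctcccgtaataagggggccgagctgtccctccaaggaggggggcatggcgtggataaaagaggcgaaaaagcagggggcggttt
*Postn*, chr3:54360957-54361106, plus strand: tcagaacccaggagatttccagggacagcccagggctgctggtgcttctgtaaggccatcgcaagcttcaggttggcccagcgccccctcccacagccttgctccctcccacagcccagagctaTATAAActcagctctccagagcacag
*Spp1*, chr5:104434961-104435110, plus strand: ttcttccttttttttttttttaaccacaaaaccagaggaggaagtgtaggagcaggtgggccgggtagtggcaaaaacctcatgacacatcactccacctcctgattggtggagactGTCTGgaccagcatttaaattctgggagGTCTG

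In the 250 bases before the start, TATAAA was found on either strand in 5 of the 9 windows of the 6 members with a window (*Tgfb1*, *Tgfb2*, *Ltbp2*, *Postn*, *Tnc* and *Spp1*), and in 12.4% of all 32851 windows of that length. In *Postn* it lay 26 bases before the start and in *Tgfb2* 31 bases before it, while that of *Spp1* lay 211 bases before, outside the stretch shown. CAGAC was found in 6 of the 9 windows and in 42.2% of all windows, with GTCTG in *Spp1* 33 and 5 bases before the start. The AP-1 letters TGANTCA were found in 0 of the 9 windows and in 6.75% of all windows. In *Ltbp2* CAGAC and GTCTG lay 205 and 176 bases before the start, outside the stretch shown. The windows of *Tnc* overlap each other, and their TATAAA is the same site counted in both. By member, TATAAA was found in 4 of the 6. A match is a stretch of letters only.

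In all, 8 of the 9 members fell between P1 and P14 in WT muscle, where 29.3% of all 18583 genes tested were called lower (edgeR quasi-likelihood test, adjusted *P* under 0.01 and a fold change over 1.5). The median log2 difference was -1.65 over the members and -0.09 over all genes. *Spp1*, the gene for osteopontin, a matrix protein of bone that macrophages also secrete, had 961, 295, 149 and 799 CPM in the WT P1 libraries and 1.29, 1.44, 1.38 and 1.53 CPM at P14. It fell by 8.61 on the log2 scale (SE 0.765, adjusted *P*=6.47e-11), and the P1 libraries differed among themselves far more than the P14 libraries. *Ltbp2*, which encodes a member of the latent TGF-β binding protein family that associates with elastic fibres and is not known to bind latent TGF-β itself, went from 13.5 to 16.6 CPM down to 0.669 to 0.970 CPM. *Ltbp2* fell by 4.27 on the log2 scale (SE 0.414, adjusted *P*=3.84e-10).

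*Tnc*, the gene for the hexameric glycoprotein of developing and tendon matrix, fell by 3.36 on the log2 scale, from 201 to 262 CPM at P1 to 11.5 to 28.4 CPM at P14 (adjusted *P*=1.67e-06). *Postn*, a collagen-binding product of fibroblasts, fell by 2.76, from 1587 to 1688 CPM down to 125 to 301 CPM (adjusted *P*=1.46e-08). *Fn1* fell by 1.65 (adjusted *P*=8.61e-07) and *Thbs1* by 1.59 (adjusted *P*=7.51e-05). Among the ligands *Tgfb3* fell by 0.81 (adjusted *P*=7.17e-06) and *Tgfb1* by 0.67 (adjusted *P*=7.92e-04). *Tgfb2* had 30.3, 39.0, 37.8 and 40.4 CPM at P1 and 39.6, 44.7, 39.9 and 29.7 CPM at P14, a log2 difference of 0.06 (SE 0.156, adjusted *P*=0.724) that turned to -0.70 when library totals alone set the scale. That scale moved the median of all genes to -0.87 and the share of calls that were higher at P14 from 45.2% to 13.7%. The keratinocyte and the cartilage and bone markers fell over the same interval (9.97 to 14.6 and 10.3 to 28.5 CPM in WT P14, against 2162 to 6842 and 509 to 865 CPM in WT P1), and their part in these differences was not tested.

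From P14 to P21, 1 member was called lower, against 3.8% of all genes. This was *Postn*, which went from 301, 300.3, 245 and 125 CPM to 67.0, 115, 78.0 and 115 CPM and fell by 1.38 on the log2 scale (SE 0.311, adjusted *P*=0.00174). With library totals the share of calls over all genes that were higher at P21 went from 44.4% to 20.7%. The call was lost without WT P21 replicate 1, the lowest library in 7 of the 9 members. From P21 to P35, 0 members were called in either direction by edgeR or by DESeq2, against 4.0% of all genes in edgeR (55.8% of those calls higher at P35, and 44.9% with library totals), and 1 member, *Tgfb1*, had an unadjusted *P* under 0.05, as did 31.6% of all genes. Its log2 difference was -0.47 (SE 0.173, adjusted *P*=0.0564), with 10.7 to 17.1 CPM at P21 and 8.66 to 11.7 CPM at P35.

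At P1 and P14 no member was called between the genotypes. At P1 edgeR called 0 of the 9 members and DESeq2 called 0, against 0.0442% of all genes, and 1 member, *Thbs1*, had an unadjusted *P* under 0.05, as did 10.9% of all genes. *Thbs1* had 89.3, 97.9, 96.8 and 100.2 CPM in WT P1 and 81.5, 93.6, 73.6 and 63.2 CPM in KO P1, and the log2 fold change was -0.29 (SE 0.111, adjusted *P*=0.391). Its groups overlapped in 1 KO library that reached the lower WT values. *Postn* had 1587 to 1688 CPM in WT mice, compared with 1411 to 1576 CPM in KO mice, so that the groups did not overlap. It was the 1 member with every KO library below every WT library, against 865 of all 18100 genes tested. Its log2 fold change was -0.12 (SE 0.0880, adjusted *P*=0.629). KO P1 replicate 4 was the lowest of its group in 8 of 9 members and the highest in *Ltbp2*.

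At P14 edgeR called 0 members, DESeq2 called 0 and 0 had an unadjusted *P* under 0.05, against 0.0318% of all genes called. Log2 fold changes ran from -0.27 (*Ltbp2*, SE 0.209) to 0.57 (*Spp1*, SE 0.266). *Tgfb1*, the ligand best known from macrophages and regulatory T cells, had 14.7, 15.4, 13.4 and 16.1 CPM in WT P14 and 15.7, 17.1, 16.2 and 18.8 CPM in KO P14, and the log2 fold change was 0.18 (SE 0.0809, adjusted *P*=0.741). The levels of *Postn*, *Tnc*, *Fn1*, *Thbs1*, *Tgfb2* and *Tgfb3* were lowest in replicate 4 of both genotypes, for example 125 and 132 CPM of *Postn* against 245 to 365 CPM in the other 6 libraries. Same-numbered WT and KO libraries deviated together at P14. With the replicate number as a block 0 members were called as well, while the calls over all genes went from 5 to 98, and the smallest adjusted *P* of a member was 0.0656 (*Fn1*, log2 fold change -0.22). The difference of the KO effect between P14 and P1 was called for no member (0 by edgeR, 0 by DESeq2 and 0 with an unadjusted *P* under 0.05, against 0.0161% of all genes called).

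At P21, the age of symptom onset in this line, the fold changes of all 9 members were positive, and 1 of them, *Postn*, was called higher in KO, against 3.18% of all 15179 genes tested. *Postn* stood at 67.0, 115, 78.0 and 115 CPM in WT mice, compared with 157, 241, 202 and 180 CPM in KO mice, and every KO library lay above every WT library. Its log2 fold change was 1.07 (SE 0.197, adjusted *P*=0.00583). The call of *Postn* was lost without WT replicate 1 or 3, or KO replicate 2, 3 or 4, with adjusted *P* of 0.00727 to 0.0174 over the 8 fits without 1 library. *Tgfb3*, the ligand with the highest level per length in this muscle, stood at 28.1, 35.6, 43.9 and 36.3 CPM in WT mice, compared with 49.2, 68.5, 64.9 and 49.9 CPM in KO mice. The groups of *Tgfb3* did not overlap, and its log2 fold change of 0.70 (SE 0.1596) had an adjusted *P* of 0.0141, above the limit of 0.01. DESeq2 called 3 members, *Postn*, *Spp1* and *Tgfb3*. Its calls over all genes, in either direction, came to 7.09% of the number that edgeR tested.

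In all, 4 of the 9 members (*Tgfb1*, *Tgfb3*, *Ltbp2* and *Postn*) had every KO library above every WT library at P21, against 13.7% of all genes. *Ltbp2* stood at 0.393, 0.934, 0.700 and 0.906 CPM in WT mice, compared with 1.04, 1.87, 2.40 and 1.00 CPM in KO mice, and its log2 fold change was 1.12 (SE 0.360, adjusted *P*=0.0539). *Spp1* stood at 1.25, 1.4999, 3.70 and 1.17 CPM in WT mice, compared with 7.09, 5.33, 3.16 and 4.002 CPM in KO mice, and its log2 fold change was 1.36 (SE 0.394, adjusted *P*=0.0369), and its groups overlapped through WT replicate 3 alone. *Tgfb2* differed least, with 27.3 to 38.0 CPM in WT mice, compared with 28.7 to 42.4 CPM in KO mice and a log2 difference of 0.05 (SE 0.146, adjusted *P*=0.831). With an unadjusted *P* under 0.05 there were 7 members, all but *Tgfb2* and *Tnc*, against 35.1% of all genes in either direction. The difference between the KO effects at P21 and P14 was called for 0 members by edgeR and 0 by DESeq2, against 0.425% of all genes in edgeR, and 4 members (*Ltbp2*, *Tgfb3*, *Fn1* and *Postn*) and 12.9% of all genes had an unadjusted *P* under 0.05 for it.

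Marker sums of other cells also differed between the genotypes at P21. All 8 fibroblast markers had positive fold changes, 1 was called higher and the median was 0.38, with sums of 3491 to 5974 CPM in WT and 4210 to 7333 CPM in KO. Of 8 macrophage markers 3 were called higher and 0 lower, and their sums did not overlap, with 101 to 121 CPM in WT and 129 to 166 CPM in KO. Of these 8 markers 7 had positive fold changes, and *Mrc1* had means of 43.5 CPM in WT and 39.0 CPM in KO. Satellite cell and myoblast markers summed to 47.0 to 72.1 CPM in WT and 99.6 to 141 CPM in KO, with 1 called higher and 1 lower. Of these 6 markers 4 had positive fold changes, among them *Myod1*, *Myog* and *Myh3*. *Pax7* and *Myf5* were lower in KO, with means of 3.56 and 1.96 CPM against 6.74 and 3.14 CPM in WT. Platelet markers summed to 4.15 to 6.10 CPM in WT and 6.76 to 8.69 CPM in KO. Among them *Pf4* went from 4.22 to 5.74 CPM and *Itga2b* from 0.657 to 1.36 CPM, while *Ppbp* had 0.199 and 0.200 CPM. Other sums were lower in KO. Endothelial markers summed to 554 to 850 CPM in WT and 437 to 532 CPM in KO, with 0 of 6 fold changes positive. Smooth muscle and pericyte markers summed to 1201 to 1459 CPM in WT and 955 to 1100 CPM in KO, with 1 of 6 positive. Of 8 muscle fibre markers 0 had positive fold changes, and the median was -0.33. The part of these cells in the rise of *Postn* and the differences of *Tgfb1*, *Tgfb3* and *Spp1* at P21 was not tested.

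At P35, 6 of the 9 members rose in KO muscle (*Tgfb1*, *Tgfb3*, *Ltbp2*, *Postn*, *Spp1* and *Thbs1*) and 0 fell, against 8.49% of all 15595 genes tested called higher. The median log2 fold change was 1.09 over the members and 0.04 over all genes. The 6 called members and *Tgfb2*, 7 in all, had every KO library above every WT library, against 19.2% of all genes. With an unadjusted *P* under 0.05 there were 8 members, all but *Fn1*, against 50.3% of all genes in either direction. Without KO replicate 2, 5 members were called, against 8.03% of all genes called higher in that fit, and *Spp1* was the one lost. With a test against a fold of 1.5 in place of against 0 (glmTreat), 0 members were called, against 602 of all 15595 genes in either direction.

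Among the ligands, *Tgfb1* stood at 8.66, 11.4, 9.995 and 11.7 CPM in WT mice, compared with 14.7, 17.3, 25.8 and 25.5 CPM in KO mice. Every KO library was above the WT range, and the log2 fold change was 1.02 (SE 0.189, adjusted *P*=0.00248). *Tgfb3* stood at 38.0, 44.5, 34.4 and 49.1 CPM in WT mice, compared with 64.0, 86.5, 85.1 and 73.0 CPM in KO mice, again without overlap. The end of *Tgfb3* overlaps *Ttll5* on the opposite strand, which had at most 788 counts, and the use of strand in counting is not given in the sources used here. Its log2 fold change was 0.92 (SE 0.133, adjusted *P*=7.25e-04), the smallest adjusted *P* among the members. *Tgfb2* stood at 31.1, 37.0, 26.0 and 40.9 CPM in WT mice, compared with 41.0, 53.8, 43.4 and 42.0 CPM in KO mice, and its log2 fold change of 0.44 (SE 0.144, adjusted *P*=0.0336) was not called. *Tgfb1* and *Tgfb3* were the members that stayed called in each of the 8 fits without 1 library. With KO replicate 2 left out, the log2 fold changes were 1.10 for *Tgfb1* (SE 0.201, adjusted *P*=0.00332), 0.85 for *Tgfb3* (SE 0.139, adjusted *P*=0.00198) and 0.34 for *Tgfb2* (SE 0.138, adjusted *P*=0.0794). Macrophages are a known source of *Tgfb1*, and 4 of 8 macrophage markers were called higher and 0 lower at P35, with a summed level of 99.7 to 126 CPM in WT and 126 to 192 CPM in KO. Of the 8 markers 6 had positive fold changes. *Mrc1* was lower in KO, at a mean of 22.9 CPM against 29.6 CPM in WT, as was *Cd163* at 7.92 against 9.80 CPM. The part of macrophages in the rise of *Tgfb1* was not tested.

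The summed ligands reached 34.7 ± 4.33 CPM per kb (SD, n=4) in KO P35 against 20.2 ± 3.27 in WT P35 and 30.3 ± 2.16 in WT P1. *Tgfb3* made up most of this sum in every group. Its share per length was 60.9% ± 0.437 in WT P35 and 65.6% ± 1.43 in KO P35, with every KO library above every WT library. *Tgfb2* held 28.8% ± 1.21 in WT and 22.5% ± 2.26 in KO, and *Tgfb1* 10.3% ± 1.12 and 11.9% ± 2.82, where the ranges of *Tgfb1* overlapped. The sum in KO P35 without replicate 2 was 33.5 ± 4.44 CPM per kb (SD, n=3), with shares of 65.2% for *Tgfb3*, 21.9% for *Tgfb2* and 12.9% for *Tgfb1*. These shares carry no test.

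**Figure D2:**
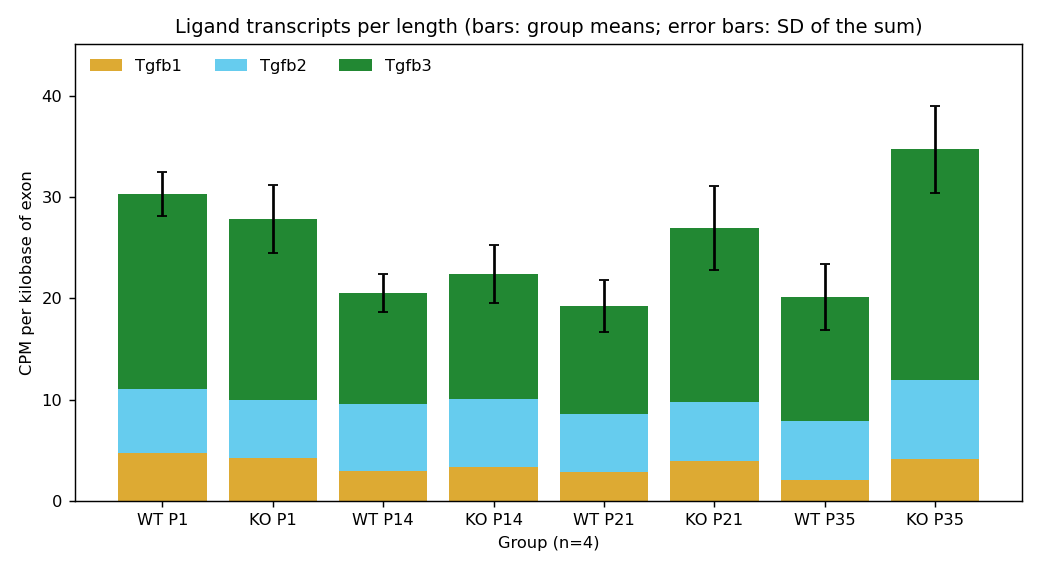
Levels of the 3 ligand genes (y, CPM per kilobase of exon, stacked group means) in each group (x, n=4); error bars are the SD of the sum over libraries. The sum was 34.7 CPM per kb in KO P35 and 20.2 CPM per kb in WT P35, and *Tgfb3* was the largest part in all 8 groups.

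*Ltbp2* had 0.754, 1.12, 0.783 and 1.25 CPM in WT P35 and 3.61, 14.0, 5.22 and 2.46 CPM in KO P35. All KO libraries were above all WT libraries, and KO replicate 2 was far above the others. The log2 fold change was 2.72 (SE 0.528, adjusted *P*=0.00316), and it was 1.96 (SE 0.290, adjusted *P*=0.00131) without KO replicate 2. Without WT replicate 1 or 3 its adjusted *P* rose above 0.01, the highest being 0.0119. The KO P35 mean of *Ltbp2* was 43.3% of its WT P1 mean, and 25.8% without KO replicate 2, against 6.70% for WT P35.

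*Spp1* showed the largest fold change of the members and the widest spread. Its WT P35 libraries had 2.12, 1.26, 5.51 and 1.15 CPM, and its KO P35 libraries had 7.93, 68.0, 45.1 and 9.46 CPM. All KO libraries were above all WT libraries, and KO replicates 2 and 3 stood far above the other pair. The log2 fold change was 3.73 (SE 0.807, adjusted *P*=0.00546). Without KO replicate 2 it was 3.07 (adjusted *P*=0.0109), and the call was also lost without WT replicate 1, 2 or 4 or KO replicate 3, with adjusted *P* of 0.00335 to 0.0186 over the 8 such fits. The KO P35 mean of *Spp1* was 5.92% of that in WT P1, and 3.78% without KO replicate 2. Another annotated gene on the same strand within *Spp1*, *Gm42793*, had at most 320 counts in a library, and reads could be split between them.

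*Thbs1*, whose product can free TGF-β from its latent complex, had 15.8, 32.2, 11.3 and 18.8 CPM in WT P35 and 46.5, 122, 47.6 and 53.5 CPM in KO P35. The groups did not overlap, and 3 of the 4 KO libraries lay close together. The log2 fold change was 1.81 (SE 0.392, adjusted *P*=0.00541) and 1.35 (SE 0.291, adjusted *P*=0.00683) without KO replicate 2. The call was lost without WT replicate 1, 3 or 4, with adjusted *P* up to 0.0186. *Postn* had 59.6, 115, 59.1 and 106 CPM in WT P35 and 179, 453, 208 and 155 CPM in KO P35, again without overlap and with KO replicate 2 far above the rest. The log2 fold change of *Postn* was 1.58 (SE 0.367, adjusted *P*=0.00766) and 1.11 (SE 0.248, adjusted *P*=0.00797) without KO replicate 2, and its call was lost without any 1 of the 4 WT libraries or KO replicate 3, with adjusted *P* up to 0.0238.

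*Tnc* and *Fn1* did not pass the test at P35. *Tnc* stood at 18.0, 27.3, 7.48 and 19.7 CPM in WT mice, compared with 23.3, 66.4, 29.4 and 32.02 CPM in KO mice, with overlap in 1 library of each genotype and a log2 difference of 1.09 (SE 0.406, adjusted *P*=0.0559). It was 0.66 (SE 0.341, adjusted *P*=0.153) without KO replicate 2. *Fn1* stood at 157, 180, 152 and 192 CPM in WT mice, compared with 194, 317, 172 and 171 CPM in KO mice. Of the KO libraries of *Fn1*, 3 of 4 lay within or just above the WT range, the log2 fold change was 0.35 (SE 0.195, adjusted *P*=0.175), and it was 0.09 (SE 0.0983) without KO replicate 2.

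**Figure D3:**
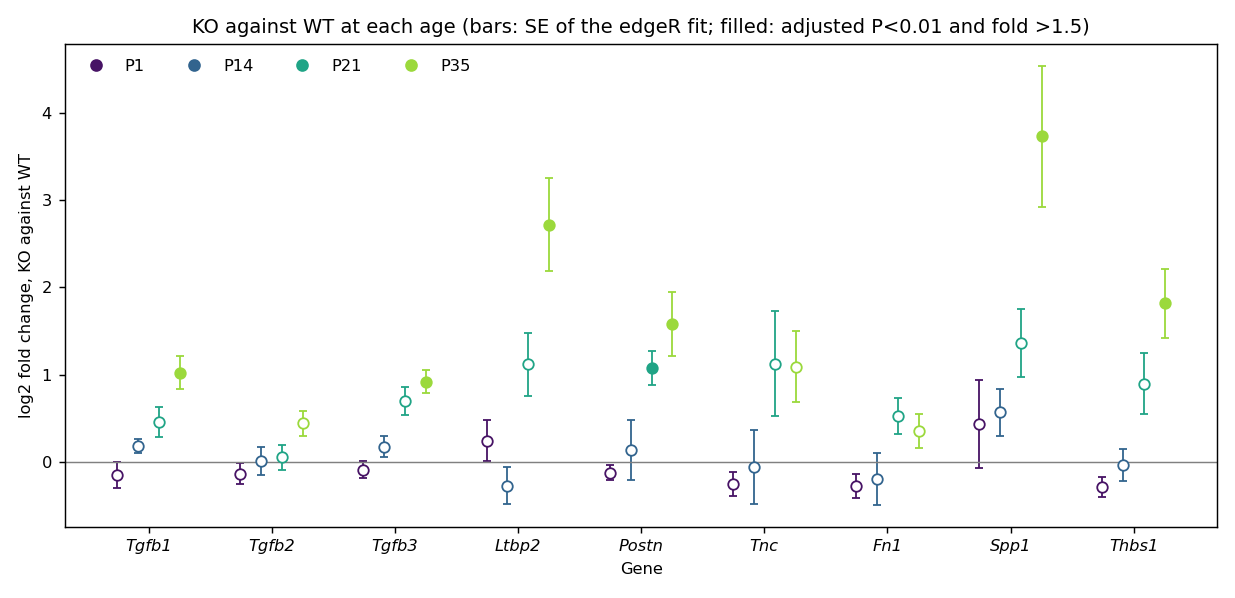
Log2 fold change of KO against WT (y) for each member (x) at the 4 ages (colours); bars are the SE of the edgeR fit and filled points were called. At P35, 6 members were called, from 0.92 for *Tgfb3* to 3.73 for *Spp1*, and at P21 *Postn* was called at 1.07.

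The KO effects at P35 and P21 differed for 0 members by edgeR and 0 by DESeq2, against 0.463% of all genes called by edgeR, and 3 members (*Ltbp2*, *Tgfb1* and *Spp1*) and 17.4% of all genes had an unadjusted *P* under 0.05 for the difference. Of the calls over all genes 32.6% were positive, and 82.4% with library totals. From P14 to P35, a comparison added after the results were known, the KO effect differed for 2 of the 9 members, *Ltbp2* and *Thbs1*, against 8.53% of all genes (44.2% of those calls positive, and 92.8% with library totals). For *Ltbp2* the difference of the log2 fold changes was 2.96 (SE 0.594, adjusted *P*=9.53e-04), and it was called in each of the 16 fits without 1 library. For *Thbs1* it was 1.82 (SE 0.455, adjusted *P*=0.00607). This call of *Thbs1* was lost in 10 of the 16 fits without 1 library, those without WT P14 replicate 1, 2 or 3, WT P35 replicate 1, 3 or 4, KO P14 replicate 2, 3 or 4, or KO P35 replicate 2. With an unadjusted *P* under 0.05 there were 6 members, against 30.9% of all genes. DESeq2 called 5 members, and its calls over all genes came to 12.1% of the number that edgeR tested. A fit blocked on replicate number called 5 members (*Ltbp2*, *Postn*, *Tgfb1*, *Tgfb3* and *Thbs1*) and 10.3% of all genes.

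At P21 and P35 the levels of *Tnc* and *Thbs1* moved in part with tendon markers. In each of the 4 groups of these ages both genes were highest in the library with the highest sum of 7 tendon markers, and in 3 of the 4 groups both were lowest in the library with the lowest sum. Both genes were also highest in the library with the highest sum of cartilage and bone markers in 4 of the 4 groups, and lowest in the library with the lowest such sum in 1 of the 4. WT P21 replicate 1 had 21.0 CPM of tendon markers, 3.59 CPM of *Tnc* and 13.6 CPM of *Thbs1*. KO P21 replicate 3 had 988 CPM of tendon markers, 61.9 CPM of *Tnc* and 83.3 CPM of *Thbs1*, and KO P35 replicate 2 had 983, 66.4 and 122 CPM. *Postn* was lowest in the library with the lowest tendon sum in all 4 groups, whereas *Tgfb1* matched in 0 of the 4 groups at either end. The tendon sums were 194 to 667 CPM in WT P35 and 392 to 983 CPM in KO P35, 0 of the 7 tendon markers were called at P35, and the part of tendon or of cartilage and bone in the differences of *Tnc*, *Thbs1* and *Postn* was not tested.

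**Figure D4:**
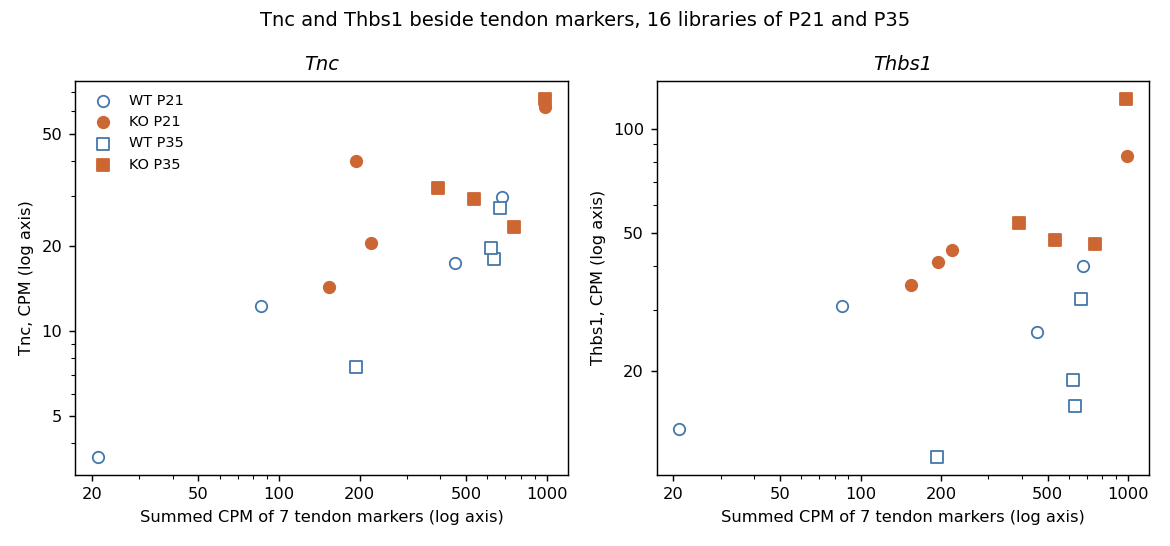
Levels of *Tnc* (left) and *Thbs1* (right) (y, CPM, log axis) against the sum of 7 tendon markers (x, CPM, log axis) in the 16 libraries of P21 (circles) and P35 (squares), WT open and KO filled. In both panels the library with 21.0 CPM of tendon markers is at or near the bottom, and the KO libraries with 983 and 988 CPM are at the top.

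Other marker sums also differed between genotypes at P35. Satellite cell and myoblast markers summed to 47.4 to 66.6 CPM in WT and 162 to 242 CPM in KO. Of these 6 markers 4 had positive fold changes, 2 were called higher and 1 lower. *Myh3* went from a mean of 4.92 CPM in WT to 86.3 CPM in KO, and *Myog* from 13.4 to 67.5 CPM. *Pax7* and *Myf5* were lower in KO, at 1.90 and 1.24 CPM against 5.22 and 2.13 CPM in WT. Muscle fibre markers summed to 146276 to 215824 CPM in WT and 89728 to 126775 CPM in KO. Schwann cell markers ranged from 87.2 to 547 CPM in WT and from 292 to 1176 CPM in KO, the highest being KO replicate 2. Of 5 adipocyte markers 3 were called higher and 0 lower, with a median log2 fold change of 2.84. Of 6 endothelial markers 2 were called lower and 0 higher, and of 6 smooth muscle and pericyte markers 1 was called lower and 0 higher. Platelet markers, which bear on *Thbs1* and *Tgfb1*, summed to 5.14 to 6.65 CPM in WT and 7.40 to 9.36 CPM in KO. Of these 6 markers 3 were tested and 1 was called higher. The gap lay in *Pf4*, with means of 4.58 CPM in WT and 6.35 CPM in KO, and *Itga2b*, with 0.757 and 1.95 CPM. *Ppbp* had 0.265 CPM in WT and 0.201 CPM in KO, and the rest were at 0.250 CPM or less. Keratinocyte markers summed to 9.39 to 10.7 CPM in WT and 25.0 to 30.7 CPM in KO. This gap lay in *Trp63*, with means of 4.44 CPM in WT and 21.5 CPM in KO. *Krt10* had 4.41 and 4.33 CPM, and the other keratinocyte markers were at 0.576 CPM or less. Fibroblast markers overlapped in their sums, with 3249 to 4034 CPM in WT mice, compared with 3383 to 5224 CPM in KO mice, and 1 of the 8 was called higher. Of the 8 fibroblast markers 7 had positive fold changes, and the median was 0.27. *Col1a1* was lower in KO, at a mean of 1449 CPM against 1621 CPM in WT. The part of these cells in the members' changes was not tested. Mitochondrially encoded genes took 12.35% to 17.9% of counts in WT P35 and 10.3% to 10.5% in KO P35. When library totals alone set the scale, the median of all genes moved to 0.44 at P35 and 0.20 at P21, and the share of calls that were higher in KO went from 53.0% to 93.0% at P35 and from 68.0% to 90.9% at P21. The fold changes above are relative to a median near 0, and all 9 members stayed positive at both ages on the other scale.

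After the mean of each age was subtracted, the members followed each other to different degrees over the 32 libraries. *Postn* and *Tgfb3* had a Pearson *r* of 0.88, *Postn* and *Thbs1* 0.86, and *Tgfb3* and *Thbs1* 0.86, while *Tgfb1* and *Fn1* had 0.18 and *Tgfb2* and *Spp1* 0.25. These values include the difference between genotypes, and so they are given as a description. The gene most like each member over all 18583 genes was *Arpc2* for *Tgfb1* (*r*=0.89), *Igsf1* for *Tgfb2* (0.85), *2310022B05Rik* for *Tgfb3* (0.94), *Emb* for *Ltbp2* (0.89), *Ckap4* for *Postn* (0.93), *Col8a2* for *Tnc* (0.93), *Cacnb3* for *Fn1* (0.91), *Shc4* for *Spp1* (0.86) and *Npnt* for *Thbs1* (0.89). Next in likeness were *Cd81* and *Me2* for *Tgfb1*, *Pitx1* and *Rrbp1* for *Tgfb2*, *Igdcc4* and *Olfm1* for *Tgfb3*, *Zc2hc1a* and *Fst* for *Ltbp2*, *Tnfrsf11b* and *Basp1* for *Postn*, *Cacna1g* and *Chpf* for *Tnc*, *Antxr1* and *Fndc1* for *Fn1*, *Fhl2* and *Qsox1* for *Spp1*, and *Mfap4* and *Lox* for *Thbs1*.

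Of 87 further genes in 6 lists, 85 were tested at P35, 14 were called higher and 1 lower in KO (8.49% of all genes were called higher and 7.52% lower), with a median log2 fold change of 0.37 against 0.04 over all genes. Without KO replicate 2, 14 were called higher and 2 lower. At P21, 9 of 85 were called higher and 0 lower, against 3.18% and 1.495% of all genes. At P14 1 of 86 was called higher (*Cilp*), against 0.0318% of all genes called in either direction.

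Of 23 TGF-β target genes 8 were called higher at P35 and 0 lower, against 8.49% and 7.52% of all genes. The list median was 0.57, and without KO replicate 2 the number called was 7 (*Ccn2* was lost) and the median 0.54. *Cilp*, an inhibitor of TGF-β signalling in cartilage, rose from 59.5 ± 12.0 to 878 ± 77.7 CPM (SD, n=4), and the log2 fold change was 3.91 (SE 0.164, adjusted *P*=1.83e-06), and it was already called at P14, from 104 ± 21.1 to 396 ± 93.6 CPM (log2 fold change 1.92, adjusted *P*=0.00935). *Junb*, an AP-1 subunit, rose by 2.72 and *Ccn2*, connective tissue growth factor, by 1.37 on the log2 scale. The metalloproteinase inhibitor *Timp1* and the cell cycle inhibitor *Cdkn1a* were called at P21 as well (3.01 and 3.38). These genes also answer to other signals.

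The receptors and SMADs had a median of -0.12 at P35, with 2 of 17 called higher and 1 lower, both near the shares over all genes (8.49% and 7.52%). *Smad3*, a transcription factor that carries the TGF-β signal, fell by 1.11 on the log2 scale, from 118 ± 9.84 to 53.6 ± 9.997 CPM (adjusted *P*=2.93e-04). The genes called higher were *Tgif1*, a corepressor of SMADs, at 1.56 and *Pmepa1*, an inhibitor induced by TGF-β, at 0.83. In the latency and activation list 1 of 18 was called higher, *Ltbp1*, which binds the latent complex, with 24.02 ± 2.57 CPM in WT and 61.6 ± 20.2 CPM in KO (1.38, adjusted *P*=7.50e-04), and 1 of 18 is also near the share over all genes. When KO replicate 2 was left out, *Itgav* was called higher as well, in this list and among the matrix receptors, and *Smurf2* lower among the receptors and SMADs.

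Of 20 other matricellular genes tested at P35, 3 were called higher, *Cilp*, *Ccn2* and *Thbs3*, against 8.49% of all genes. The list median was 0.78 (0.24 without KO replicate 2, where *Ccn2* was lost). At P21 the genes called higher were *Cilp*, *Thbs3* and *Smoc2*, against 3.18% of all genes. Of 14 matrix receptors 3 were called higher and 0 lower at P35, against 8.49% and 7.52% of all genes. They were the laminin receptor subunit *Itga7* (0.74), the tenascin and osteopontin receptor subunit *Itga9* (1.07) and the heparan sulphate proteoglycan *Sdc4* (0.83). Of the 4 proteoglycans that bind TGF-β, *Bgn*, which encodes biglycan, was called higher at P21 (0.94) and at P35 (0.83).

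**Figure D5:**
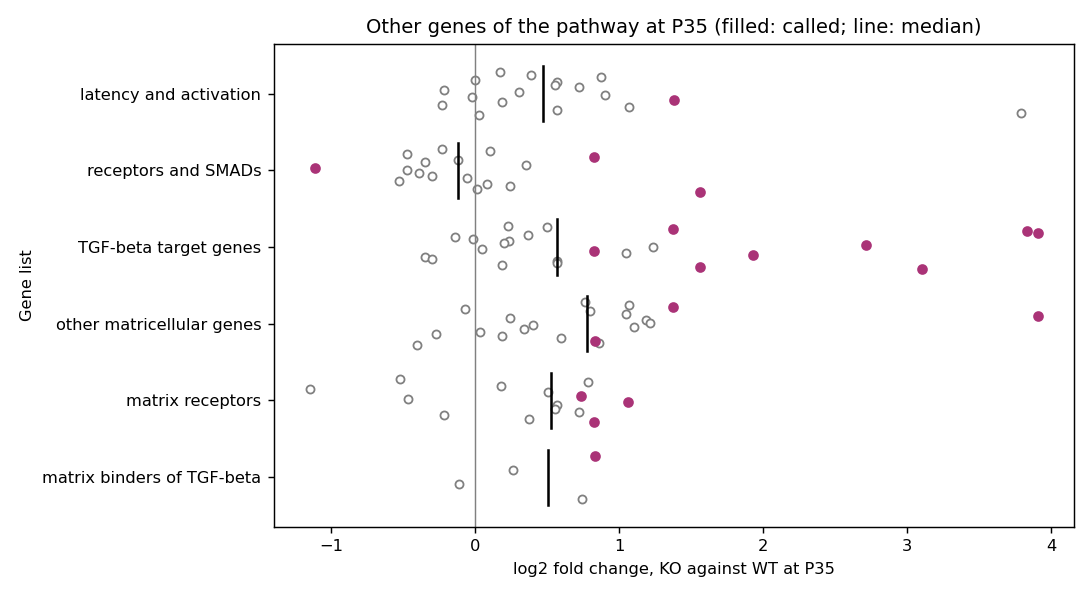
Log2 fold change of KO against WT at P35 (x) for the genes of 6 lists (y); filled points were called and vertical lines are list medians. The receptors and SMADs have a median of -0.12, and the target genes have 8 called genes above 0; the open point near 4 in the first list is *Mmp9* (3.79, adjusted *P*=0.0467), chosen after its values were seen.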

How the data were processed

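Poly(A) RNA of 32 muscle samples was sequenced from directional libraries. The authors deposited 1 table of expected counts per gene, unnormalised, made with STAR 2.6.1 and RSEM 1.2.22 on GRCm38 per their processing notes, whereas their methods name HTSeq. The annotation release and the use of strand are not given in the sources used here. All sample columns were used (0 left out). Of the values, 4.26% were not whole, and all were rounded. Symbols came from GENCODE M21 for 54723 of 54838 genes.

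Genotypes were compared at each age by edgeR 4.0.16 (R 4.3.3; filterByExpr, TMM, quasi-likelihood test, Benjamini-Hochberg adjustment). Ages and KO effects between ages were compared in 1 fit of 32 libraries (18583 genes). Called means adjusted *P* under 0.01 with a log2 fold change beyond 0.585 in size, and for differences of KO effects the adjusted *P* alone. Printed CPM are TMM-normalised over 32 libraries. *P*-values measure the spread between replicate samples, which the labels number but do not tie to separate animals. The fits were tested on simulated data. Replicate pairs differed beyond sampling noise (lowest chi-square per degree of freedom 10.5).

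The members, lists and tests were chosen with earlier results of these data known. Named were all members, *Mtm1*, from each list the 3 genes with the smallest adjusted *P* at P35 and P21 if called, and the 3 genes most like each member. A target gene that this rule names is not reported here. Alternatives were other filters and scalings, DESeq2 1.42.0, glmTreat, other sets of samples, a replicate block and leaving out each library. Libraries of either genotype that share a replicate number deviated together at P14 (*r* of 0.42, 0.47, 0.30 and 0.73). They did not in every pair at P1 (-0.33 to 0.01), P21 (-0.06 to 0.29) or P35 (-0.10 to 0.24). The labels give the numbers only.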

Additional observations from a re-analysis of the deposited data

Results flagged for a closer look

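Among 72 groups of 4 libraries, 1 per member, genotype and age, 6 had a library far from the other 3 by Dixon's test, where 1 in 20 would give 3.6. *Tgfb3* stood at 50.1 CPM in KO P1 replicate 4 and at 32.4 CPM in WT P14 replicate 4, both below the rest of their group. *Ltbp2* stood at 0.970 CPM in WT P14 replicate 3 and *Spp1* at 3.70 CPM in WT P21 replicate 3, both above. KO P35 replicate 2 stood above its group in *Fn1* (316.8 CPM) and *Thbs1* (121.7 CPM), and it also held the most cartilage and bone markers of its group, whose part was not tested.

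The KO effect differed between P35 and P14 for *Ltbp2* (2.96 on the log2 scale, edgeR adjusted *P*=9.53e-04) and *Thbs1* (1.82, adjusted *P*=0.00607), in a comparison added after the results were known. Without KO P35 replicate 2 the values were 2.21 (adjusted *P*=0.00128) and 1.37 (adjusted *P*=0.0214).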

How the results depend on the processing

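Limits were the 4 samples per group, the depth for *Ltbp2*, whose lowest count was 16, and a threshold that several members passed narrowly. For single genes under settings other than leaving out a library, 494 values kept direction and side of the threshold, 20 passed it anew, 9 lost it and 5 turned sign. The cause of the changes below was not tested.

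Members called at P21 (1 by the test reported) were 2 with library totals, 2 with no low-count filter, 2 with the replicate block, 0 with glmTreat and 3 with DESeq2, and 0 to 2 without 1 library. At P35 (6) they were 0 with glmTreat and 2 to 6 without 1 library, the fewest without WT P35 replicate 1. For the KO effect at P35 against P14 (2) they were 6 with library totals, 1 with only the groups of the contrast, 5 with DESeq2, 5 with the replicate block and 1 to 5 without 1 library. For WT at P21 against P14 (1) they were 0 to 1 without 1 library.

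Over all genes, calls at P1 (8) were 14 with no low-count filter, 2 with the replicate block, 0 with glmTreat, 99 with DESeq2, 2 in 1 fit of 32 libraries and 0 to 15 without 1 library. At P14 (5) they were 10 with no filter, 98 with the replicate block, 1 with glmTreat, 55 with DESeq2 and 1 to 4 without 1 library. At P21 (709) they were 1157 with library totals, 113 with glmTreat, 1076 with DESeq2 and 417 to 626 without 1 library. At P35 (2496) they were 4676 with library totals and 602 with glmTreat. For the KO effect at P14 against P1 (3) they were 8 with only the groups of the contrast, 10 with DESeq2 and 1 with the replicate block. For P21 against P14 (79) they were 167 with library totals, 219 with DESeq2 and 30 to 100 without 1 library. For P35 against P21 (86) they were 9 with only those groups, 328 with DESeq2, 156 with the replicate block and 37 to 116 without 1 library. For P35 against P14 (1585) they were 3130 with library totals. For WT at P35 against P21 (744) they were 368 with only those groups and 467 to 748 without 1 library.

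Signs turned for values near 0. With library totals *Tnc* at P14 was 0.047 and *Thbs1* 0.070. *Tgfb2* in WT at P14 against P1 was -0.70 with library totals, -0.10 with at least 10 counts in every library, -0.0014 with DESeq2 and -0.022 to 0.17 without 1 library. Without 1 library, *Ltbp2* at P1 was -0.062 to 0.40, *Tgfb2* at P21 -0.078 to 0.12, and at P14 *Tgfb2* was -0.10 to 0.12, *Postn* -0.087 to 0.35, *Tnc* -0.38 to 0.22, *Fn1* -0.40 to 0.0019 and *Thbs1* -0.21 to 0.12.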
